A study of Mus musculus with 9 samples.

Results

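The Toll-like receptors are sensors of microbial molecules on phagocytes and their precursors. The 10 genes Tlr1 to Tlr9 and Tlr13 were chosen by name, as the probes of the deposited table that carry these symbols, out of 21872 genes measured. They were read by 13 probes. Tlr4, Tlr7 and Tlr8 had 2 probes each, and the probe with the highest mean over the 9 arrays stands for the gene, with the other probe given beside it. Tlr11 and Tlr12, the remaining measured genes of the mouse family, are not among the 10 and are used only for comparison.

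Expression was measured on 1-colour Agilent arrays in granulocyte-monocyte progenitors (GMPs), the marrow precursors of neutrophils and monocytes. The labels describe a sort from the marrow of C57BL/6 recipients for cells negative for lineage markers, Sca1 and CD150 and positive for cKit and CD16/32, 1 month after transplantation. LeuA GMPs (AE1, 3 arrays) came from recipients of spleen cells of a moribund leukaemic mouse of genotype Tet2-/-:AE, meaning loss of Tet2 together with AE, the fusion known as AML1-ETO. LeuB GMPs (AE3, 3 arrays) came from recipients of spleen cells of another such mouse, and WT GMPs (3 arrays) from recipients of wild-type bone marrow. The labels call the arrays of a group biological replicates, without saying whether an array holds 1 recipient or a pool. Each leukaemia comes from 1 primary mouse, so the spread behind a p-value says nothing of other leukaemias. Donor tissue changed together with genotype, and the ages of the mice and the treatment of the recipients before transplantation are not given in the labels. For LeuB the label on the transplanted cells reads LeuA/AE3, and the grouping follows title and source. The leading transcripts of normal GMPs set the leukaemic cells apart from their label: over 7 markers such as Mpo and Elane the list mean lay between 7.92 and 8.00 in LeuA, 7.49 and 8.11 in LeuB, and 15.97 and 16.12 in WT.

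Toll-like receptors are membrane proteins whose outer leucine-rich part binds a ligand and whose inner TIR domain recruits adaptor proteins. Tlr1, Tlr2, Tlr4, Tlr5 and Tlr6 act at the cell surface on bacterial lipids and proteins, whereas Tlr3, Tlr7, Tlr8, Tlr9 and Tlr13 act in endosomes on nucleic acids. All except Tlr3 signal through the adaptor Myd88 to NF-kappaB. Normal haematopoietic progenitors carry several of them and can respond to their ligands by turning toward myeloid fates.

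The genes of the surface receptors were near the bottom of the scale in both leukaemias. Of the 5 surface receptors 4 fell in LeuA and the same 4 in LeuB, namely Tlr1, Tlr2, Tlr4 and Tlr6. Of the 5 endosomal receptors 1 fell in LeuA (Tlr7) and 1 in LeuB (Tlr9), by less than 0.6 on the log2 scale. Tlr12, an endosomal receptor outside the 10, fell in both, with differences from WT of -2.86 in LeuA and -2.96 in LeuB. Tlr3, Tlr5 and Tlr8 were near the bottom of the scale in WT as well, where a fall would not be detectable. None of the 10 rose. Values are log2 intensities as deposited. A gene was called, and is said to have risen or fallen, at a limma adjusted p under 0.05 over all 21872 genes, and every mean has n = 3 arrays.

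Over all genes tested, 18.9% were called lower in LeuA than in WT and 20.4% lower in LeuB, beside which 5 of the 10 receptors fell in each. The arrays of LeuA lay wholly below those of WT for 6 receptors (24.7% of all genes) and those of LeuB for 5 (25.2% of all genes). The median difference of the receptors was -0.37 in LeuA and -0.32 in LeuB, against 0.01 and -0.01 over all genes. Both comparisons use the same 3 WT arrays. No background level or detection flag was used here, and the lower quartile of gene means was 6.43. Values near or below that level have no reliable order, so a fold change into it is a ratio of intensities that may understate the change in RNA. In sorted populations such as these, fewer cells of a type and less RNA per cell cannot be told apart.

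Promoters are shown for Tlr2, Tlr1 and Tlr6, which fell in both leukaemias, and for Tlr12, added after its values were seen. That of Tlr9, which was called lower in LeuB only, is given for comparison. Whether the motifs bear on the falls was not tested. Each run is the 250 bases before a transcription start in RefSeq, 5′ to 3′ in the direction of the gene. Capitals mark matches, on either strand, to any of 4 motifs: AGGAAGT, an ETS core as used by PU.1 (the product of Spi1), TGTGGT, the core bound by RUNX factors and by AML1-ETO, a pair of GAAA elements of IRF factors with 2 bases between them, and TTGCNNAA, a C/EBP core. RefSeq promoter sequences were held for 8 of the 10 receptors, not Tlr4 and Tlr7.
Tlr2 (GRCm38.p6, chr3:83841609-83841858, minus strand): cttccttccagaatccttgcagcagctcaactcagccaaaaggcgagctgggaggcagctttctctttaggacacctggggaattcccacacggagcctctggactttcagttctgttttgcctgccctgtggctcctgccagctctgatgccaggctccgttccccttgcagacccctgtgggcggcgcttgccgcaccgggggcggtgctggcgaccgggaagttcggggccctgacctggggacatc
Tlr1 (GRCm38.p6, chr5:64933559-64933808, minus strand): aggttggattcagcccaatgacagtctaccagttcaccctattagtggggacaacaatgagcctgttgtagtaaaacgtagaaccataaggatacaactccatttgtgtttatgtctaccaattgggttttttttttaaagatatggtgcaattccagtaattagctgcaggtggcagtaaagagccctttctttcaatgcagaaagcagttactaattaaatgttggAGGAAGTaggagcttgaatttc
Tlr6 (GRCm38.p6, chr5:64959167-64959416, minus strand): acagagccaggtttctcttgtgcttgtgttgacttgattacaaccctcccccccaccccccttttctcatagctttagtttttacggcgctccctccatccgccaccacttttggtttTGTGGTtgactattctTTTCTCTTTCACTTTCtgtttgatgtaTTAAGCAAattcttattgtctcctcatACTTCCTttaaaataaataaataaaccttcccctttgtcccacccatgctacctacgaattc
Tlr12 (GRCm38.p6, chr4:128618620-128618869, minus strand): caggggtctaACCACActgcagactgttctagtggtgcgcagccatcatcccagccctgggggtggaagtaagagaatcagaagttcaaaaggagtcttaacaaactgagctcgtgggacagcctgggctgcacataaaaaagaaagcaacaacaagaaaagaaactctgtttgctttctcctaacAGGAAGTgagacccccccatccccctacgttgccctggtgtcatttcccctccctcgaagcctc
Tlr9 (GRCm38.p6, chr9:106222348-106222597, plus strand): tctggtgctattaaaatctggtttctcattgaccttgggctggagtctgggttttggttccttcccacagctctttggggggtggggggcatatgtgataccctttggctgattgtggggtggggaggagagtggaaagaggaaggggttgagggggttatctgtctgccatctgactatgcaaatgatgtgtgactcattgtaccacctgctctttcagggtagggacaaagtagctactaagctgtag

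The ETS core AGGAAGT was found in 7.69% of all 32851 promoter windows of this length. It occurred in the shown windows of Tlr1, 22 to 16 bases before the start, of Tlr6, 62 to 56 bases before it on the opposite strand, and of Tlr12, 64 to 58 bases before it. It was not found in the windows of Tlr2, Tlr3, Tlr5, Tlr8, Tlr9 and Tlr13. Tlr1 and Tlr6 each have a second start in the table, at chr5:64932700-64932949 and chr5:64960049-64960298, and those windows held none of the 4 motifs. By the gene spans given below, both Tlr6 windows and the second Tlr1 window lie inside their genes. Most of the Tlr2 window does too. For neither Tlr2 nor Tlr6 was a start at the outer end of the gene held. The RUNX core, found in 14% of all windows, occurred in those of Tlr6 and Tlr12. The Tlr6 window also held 2 overlapping IRF pairs, a motif of 2.98% of windows. A C/EBP core, present in 9.56% of windows, was found in those of Tlr6, Tlr3 and Tlr8. CpG dinucleotides numbered 11 in the Tlr2 window, 1 in the shown Tlr1 window, 4 in the shown windows of Tlr6 and Tlr12 and 0 in that of Tlr9. The second windows held 8 for Tlr1 and 6 for Tlr6. The median was 6 over all windows. The shown Tlr1 and Tlr6 windows were those of the 2 that held matches, so their matches are a description of the sequences and nothing more.

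Tlr2, the receptor that pairs with Tlr1 or Tlr6 to bind bacterial lipoproteins, showed the largest fall. Its gene lies on chromosome 3 (chr3:83836272-83841824, GRCm38.p6). Its log2 intensities were 6.24, 6.36 and 6.30 in LeuA, 6.22, 6.06 and 6.13 in LeuB, and 9.88, 9.59 and 9.60 in WT. All 6 leukaemic arrays lay below that quartile and all WT arrays more than 3 log2 units above them. Tlr2 fell by 3.39 (SE 0.09, adjusted p = 2.2e-09) in LeuA, 10.4-fold lower in intensity than WT. In LeuB it fell by 3.55 (SE 0.09, adjusted p = 1.7e-09), 11.7-fold lower. LeuB minus LeuA was -0.17 (95% interval -0.37 to 0.04, adjusted p = 0.27), although the arrays of the leukaemias did not overlap.

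Tlr6 and Tlr1, the partners of Tlr2 for diacylated and triacylated lipoproteins, are neighbours on chromosome 5 (chr5:64953092-64970942 and chr5:64924680-64933600). For Tlr6 the values were 6.20, 6.25 and 6.18 in LeuA, 6.20, 6.14 and 6.25 in LeuB, and 7.96, 7.49 and 7.37 in WT. Tlr6 was lower in both leukaemias, with differences from WT of -1.40 in LeuA (adjusted p = 1.9e-05) and -1.41 in LeuB (adjusted p = 1.7e-05), with an SE of 0.13 for both. No leukaemic array reached the lowest WT array.
The Tlr1 probe gave 6.22, 6.27 and 6.37 in LeuA, 6.14, 6.30 and 6.32 in LeuB, and 7.41, 6.94 and 6.89 in WT. The groups did not overlap, and Tlr1 fell, with LeuA minus WT at -0.79 (adjusted p = 0.00091) and LeuB minus WT at -0.82 (adjusted p = 0.00065), with an SE of 0.13 for both. Tlr1 and Tlr6 are close paralogs, and whether their probes read separate transcripts was not tested. In WT 1 both stood above the other WT arrays, Tlr1 by 0.50 and Tlr6 by 0.53.

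Tlr4, the receptor for lipopolysaccharide of Gram-negative bacteria, lies on chromosome 4 (chr4:66827551-66846581). Its brighter probe gave 6.46, 6.45 and 6.33 in LeuA, 6.48, 6.46 and 6.29 in LeuB, and 7.81, 7.94 and 7.78 in WT. All leukaemic arrays were below all WT arrays, and the leukaemias overlapped. Tlr4 fell by 1.43 in both LeuA and LeuB (SE 0.08, adjusted p = 3.5e-07 in each), 2.69-fold and 2.70-fold lower. The other Tlr4 probe, whose accession did not match a RefSeq transcript, lay between 5.86 and 6.07 on all arrays and gave -0.08 in LeuA. With the mean of both probes in place of the brighter one, Tlr4 was still called, at -0.76 in LeuA and -0.74 in LeuB.

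Tlr5, the flagellin receptor on chromosome 1 (chr1:182954752-182976044), is the surface receptor that was not called. It gave 6.32, 6.37 and 6.18 in LeuA, 6.41, 6.22 and 6.27 in LeuB, and 6.29, 6.32 and 6.36 in WT. Every array was below the lower quartile and the 3 groups overlapped. The difference from WT was -0.03 (95% interval -0.20 to 0.14) in LeuA and -0.02 (-0.19 to 0.15) in LeuB. At this level a loss of the transcript would not be detectable.

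**Figure D1:**
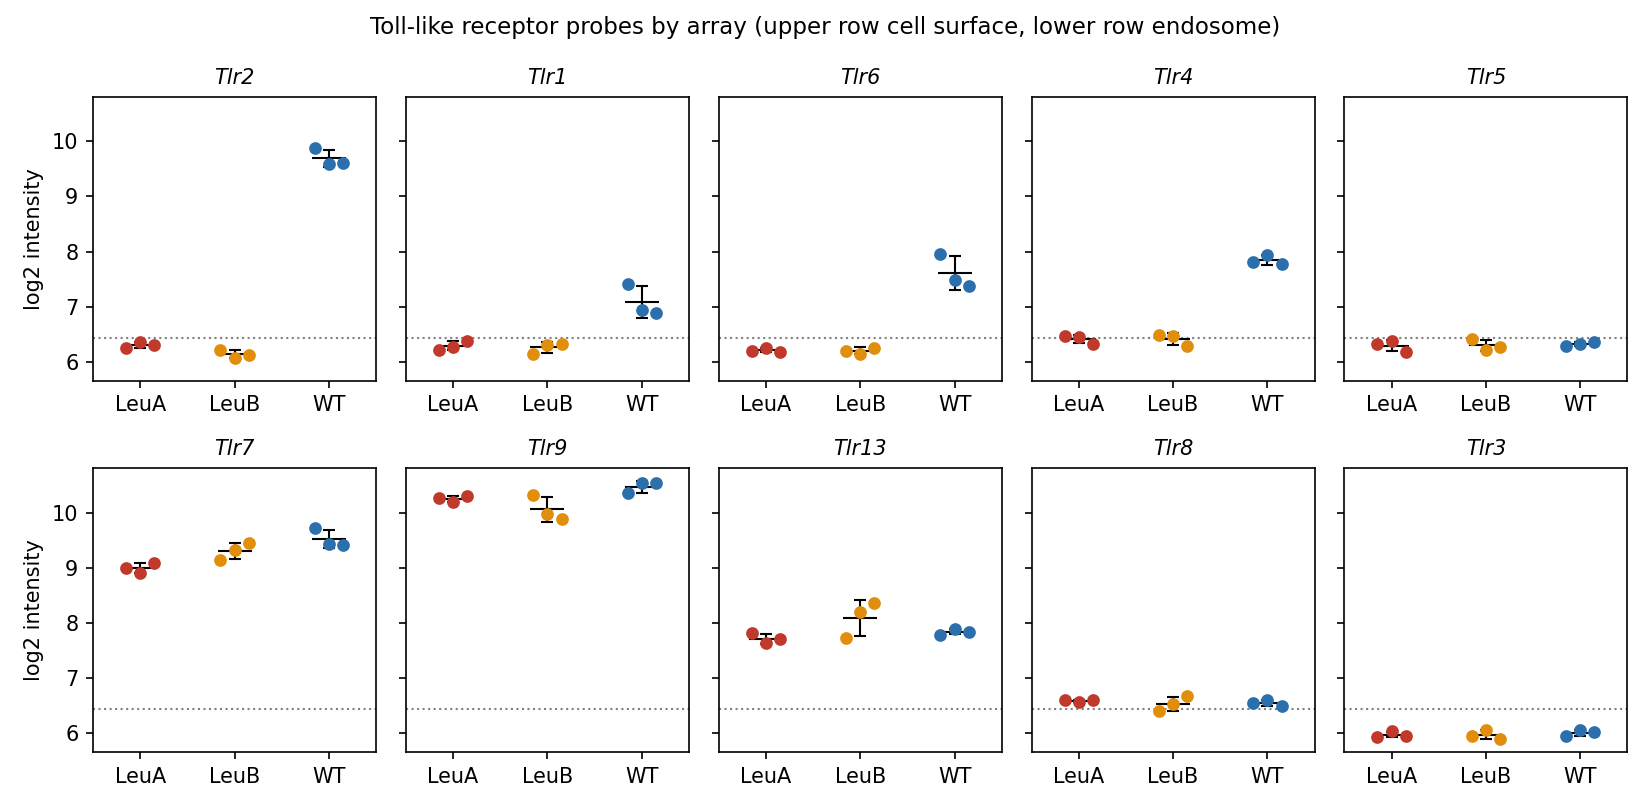
Log2 intensity (y axis) of each of the 10 receptors on the 9 arrays, in LeuA, LeuB and WT GMPs, with 1 point per array and the mean ± SD of 3 arrays in black. The dotted line at 6.43 is the lower quartile of gene means, which the leukaemic arrays of Tlr2, Tlr1 and Tlr6 do not reach and which those of Tlr4 straddle. Levels are not compared between panels, since each probe has its own response.

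The endosomal receptors Tlr7 and Tlr9 kept clear signals in the leukaemias. Tlr7 senses single-stranded RNA and lies on the X chromosome (chrX:167303380-167330574). Its values were 8.99, 8.91 and 9.08 in LeuA, 9.14, 9.32 and 9.45 in LeuB, and 9.72, 9.43 and 9.42 in WT. LeuA lay below every WT array, and LeuB overlapped WT through its highest array. Tlr7 fell by 0.53 (SE 0.11, adjusted p = 0.0032) in LeuA, 1.44-fold lower, and gave -0.22 (95% interval -0.46 to 0.02, adjusted p = 0.13) in LeuB. The second Tlr7 probe, whose accession did not match a RefSeq transcript, lay between 6.12 and 6.35 on all arrays and gave 0.10 in LeuA. With the mean of both probes the Tlr7 difference in LeuA was -0.21, with an adjusted p = 0.051.

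Tlr9, the receptor for unmethylated CpG DNA, lies on chromosome 9 (chr9:106222598-106226876). It gave 10.27, 10.19 and 10.31 in LeuA, 10.32, 9.97 and 9.89 in LeuB, and 10.35, 10.54 and 10.53 in WT. Every leukaemic array lay below the lowest WT array, LeuB 1 and LeuA 3 by a small margin. The difference was -0.22 (95% interval -0.47 to 0.03, adjusted p = 0.18) in LeuA, and in LeuB Tlr9 fell by 0.41 (SE 0.11, adjusted p = 0.014), 1.33-fold lower. On slide 1 alone, which holds LeuB 1 but not LeuB 2 or LeuB 3, Tlr9 was not called in LeuB.

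Tlr13, a receptor for bacterial ribosomal RNA in mice, and Tlr8, a relative of Tlr7, are also X-linked (chrX:106143275-106160493 and chrX:167241123-167264329). Tlr13 gave 7.81, 7.63 and 7.70 in LeuA, 7.72, 8.20 and 8.35 in LeuB, and 7.78, 7.89 and 7.84 in WT. The groups overlapped, with LeuB 2 and LeuB 3 above every other array, and the differences were -0.12 (adjusted p = 0.59) in LeuA and 0.25 (adjusted p = 0.18) in LeuB. For Tlr8 both probes lay between 6.26 and 6.67 on all arrays, near the bottom of the scale. Its brighter probe, whose accession did not match a RefSeq transcript, gave 0.04 in LeuA (95% interval -0.13 to 0.20) and -0.01 in LeuB (-0.18 to 0.16). The other Tlr8 probe, which matched, gave -0.03 in LeuA and -0.14 in LeuB, neither called.
Tlr3, the receptor for double-stranded RNA on chromosome 8 (chr8:45395665-45411075), lay between 5.89 and 6.06 on all arrays. It differed from WT by -0.04 in each leukaemia (95% interval -0.19 to 0.11). A transcript below the reach of the probe would look the same in all groups.

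**Figure D2:**
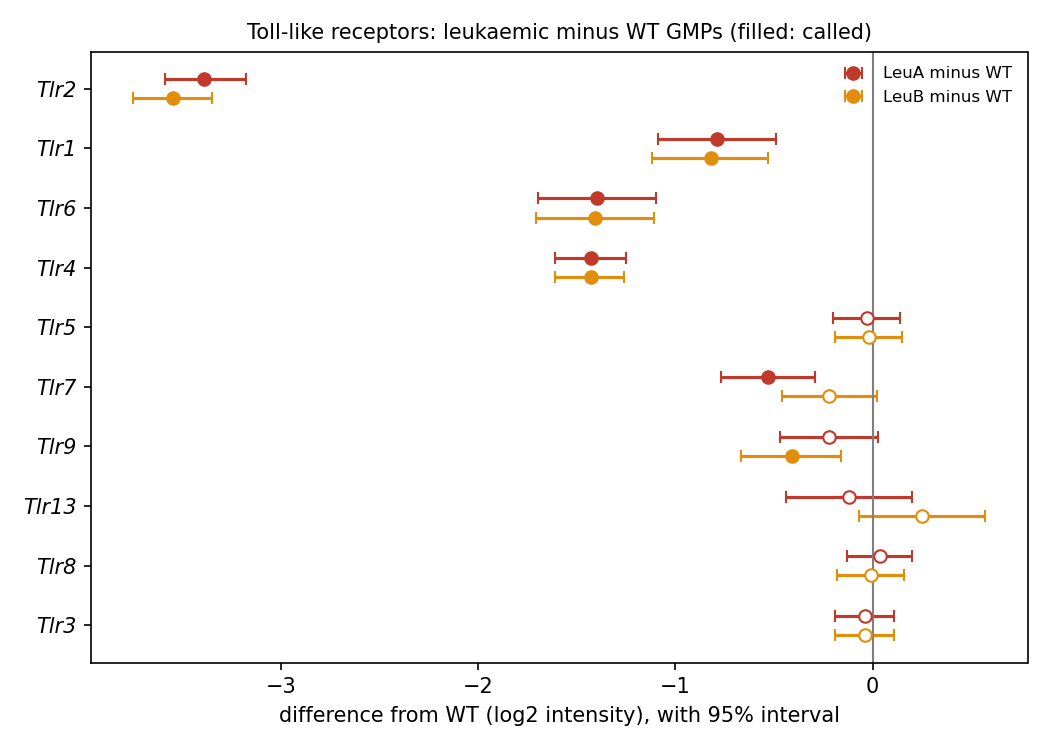
Difference in log2 intensity (x axis) of LeuA and of LeuB from WT for the 10 receptors, with 95% intervals from the limma fit. Filled points passed the adjusted p of 0.05. Tlr2 lies near -3.5, Tlr6 and Tlr4 near -1.4 and Tlr1 near -0.8 in both leukaemias, and the intervals of Tlr5, Tlr13, Tlr8 and Tlr3 cross 0.

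Tlr12, singled out after its values were seen, fell in both leukaemias as well. It is an endosomal receptor of mice that works with Tlr11 in sensing profilin of protozoa, and its gene lies on chromosome 4 (chr4:128615446-128618619). Its probe gave 6.65, 6.18 and 6.30 in LeuA, 6.20, 6.33 and 6.32 in LeuB, and 9.04, 9.40 and 9.28 in WT. LeuA minus WT was -2.86 (SE 0.13, adjusted p = 9.4e-08) and LeuB minus WT -2.96 (SE 0.13, adjusted p = 7.2e-08), with no overlap of leukaemic and WT arrays. Tlr11 lay between 6.14 and 6.39 on all arrays and was not called.

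Between the leukaemias no receptor was called. In LeuB against LeuA limma called 12.3% of all genes and 0 of the 10 receptors, with 2 at an unadjusted p under 0.05, Tlr7 and Tlr13. The arrays of the leukaemias did not overlap for Tlr2 and Tlr7, as for 30.2% of all genes. Tlr7 was 0.31 higher in LeuB (95% interval 0.07 to 0.55, adjusted p = 0.10), and its arrays did not overlap between the leukaemias. Tlr13 was 0.38 higher in LeuB (95% interval 0.06 to 0.70, adjusted p = 0.12), with overlap. For Tlr1, Tlr4 and Tlr6 the intervals of LeuB minus LeuA were -0.33 to 0.26, -0.18 to 0.17 and -0.31 to 0.28.

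Arrays of a group differed for some receptors. The 3 WT arrays, the 3 LeuA arrays and LeuB 1 shared slide 1, and LeuB 2 and LeuB 3 lay on slide 2. The mean of LeuB 2 and LeuB 3 minus LeuB 1 was 0.55 for Tlr13, 0.24 for Tlr7 and -0.39 for Tlr9. On slide 1 alone, where the single LeuB array borrows its spread from the rest, LeuB minus WT was -0.16 for Tlr9 (adjusted p = 0.34), -0.38 for Tlr7 (adjusted p = 0.085) and -0.11 for Tlr13 (adjusted p = 0.44). The Tlr9 call in LeuB was also lost without WT 2 (adjusted p = 0.052), WT 3 (0.053), LeuB 2 (0.057) or LeuB 3 (0.055). Without LeuB 1, which leaves LeuB on slide 2 alone, Tlr13 was higher in LeuB than in WT (0.44, adjusted p = 0.0019). In the same setting Tlr7 (0.39), Tlr9 (-0.32) and Tlr13 (0.56) were called in LeuB against LeuA. The falls of Tlr1, Tlr2, Tlr4 and Tlr6 were called in both leukaemias on slide 1 alone and without each array in turn.

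WT 1 stood apart from the other WT arrays for Tlr6, Tlr1, Tlr7 (0.29 higher) and Tlr2 (0.28 higher), and Tlr9 was 0.19 lower in it. Beside this, 8 of 9 measured monocyte and macrophage marker genes were higher in WT 1 than in both other WT arrays, with a median of 0.53, and mature neutrophil markers had a median of -0.93. Without WT 1 and LeuB 3 together, a setting chosen after the data were seen because these arrays stood apart in monocyte or neutrophil markers, the same 5 receptors were called in LeuA and the same 5 in LeuB.

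**Figure D3:**
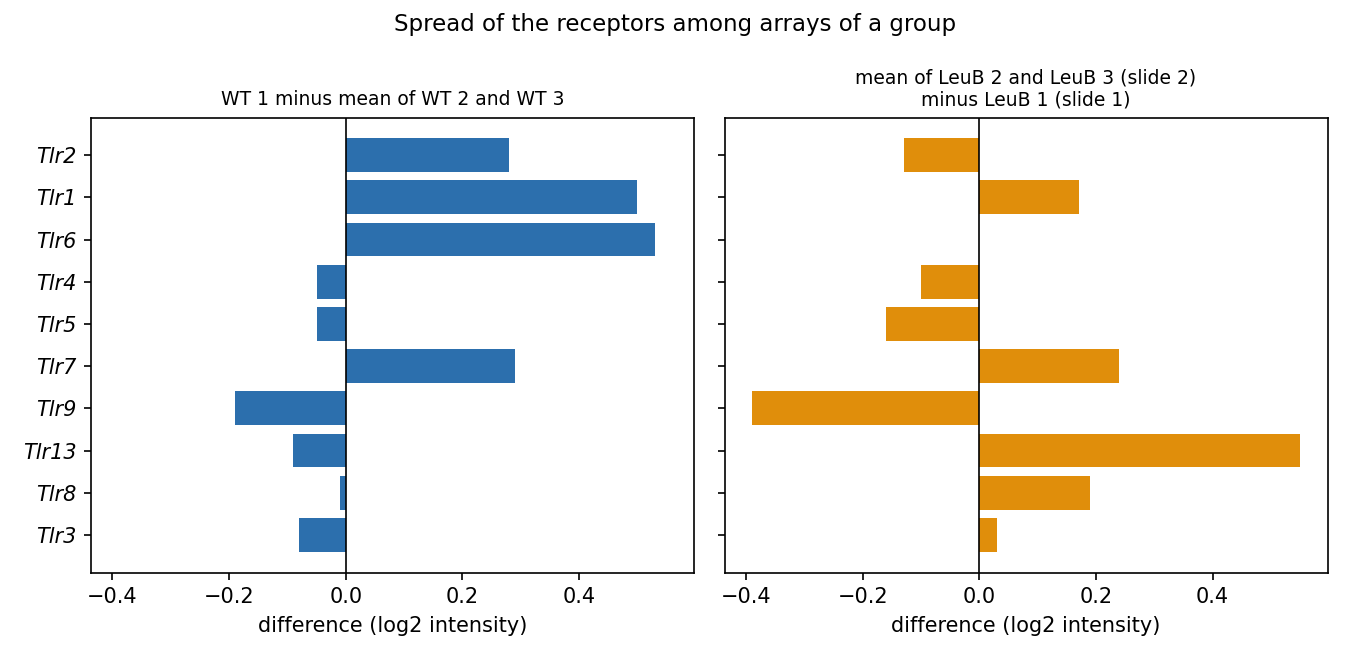
Differences in log2 intensity (x axis) between arrays of 1 group for the 10 receptors. The left panel gives WT 1 minus the mean of WT 2 and WT 3, where Tlr6 (0.53) and Tlr1 (0.50) stand out. The right panel gives the mean of LeuB 2 and LeuB 3, which lay on slide 2, minus LeuB 1 on slide 1, where Tlr13 (0.55) and Tlr9 (-0.39) stand out.

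Most monocyte and macrophage markers and all GMP markers fell in both leukaemias, erythroid markers rose, and several other lists were mixed. For comparison with these and the later lists, 18.9% of all genes were called lower and 17.9% higher in LeuA. In LeuB 20.4% were called lower and 21.8% higher. Of 9 measured monocyte and macrophage markers, 8 fell in each leukaemia, and the mean of the list lay between 6.72 and 6.80 in LeuA, 6.77 and 7.10 in LeuB, and 9.45 and 9.96 in WT. Csf1r, the receptor of macrophage colony-stimulating factor, was called lower in both, by -2.74 in LeuA arrays and -2.71 in LeuB arrays, while Fcgr1 and Mrc1 stayed below the median gene on every array. Of 7 GMP markers all fell in each leukaemia, with medians of -8.17 in LeuA and -7.90 in LeuB. All 8 measured erythroid markers rose in each, with list means between 13.74 and 13.98 in LeuA, 13.96 and 14.07 in LeuB, and 8.22 and 8.39 in WT. Of 8 mast cell and basophil markers LeuA had 5 higher and 2 lower and LeuB 5 higher and 3 lower.
Among dendritic cell markers 3 of 10 fell in each leukaemia and 2 rose in LeuA and 1 in LeuB. Differences from WT in LeuA and LeuB were -5.36 and -5.01 for H2-Ab1 and -3.16 and -3.11 for Flt3. For Zbtb46, which rose in both, they were 1.44 and 1.28. Siglech stayed above 15 on every array and was not called, and Itgax, Xcr1, Clec9a and H2-Aa stayed below the median gene on every array. For mature neutrophil markers 7 of 10 fell in LeuA and 4 in LeuB. LeuB 3 stood apart, with a list mean of 8.86 against 6.75 in LeuB 1, and LeuB 2 lay near LeuB 1. The list mean lay between 7.23 and 7.32 in LeuA and 8.62 and 10.08 in WT. Of 7 B cell markers LeuA had 2 lower and 1 higher and LeuB 1 of each, and Cd79a, Ms4a1, Pax5 and Ebf1 stayed below the median gene on every array. The T and NK cell list had 1 of 8 genes lower in LeuA, and 4 lower and 1 higher in LeuB. The part of these changes in the receptor results was not tested.

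Most co-receptors and accessory proteins fell too. Of 8 measured, LeuA had 5 lower and LeuB 5 lower and 1 higher. Lbp encodes a protein that carries lipopolysaccharide to Cd14. It was at 6.36, 6.28 and 6.16 in LeuA, 6.14, 6.01 and 6.29 in LeuB, and 12.46, 12.06 and 12.13 in WT, 61.6-fold lower for LeuA and 67.1-fold for LeuB. Its second probe, between 6.24 and 7.30, was lower in both leukaemias, with differences from WT of -0.82 in LeuA and -0.62 in LeuB, and with the mean of both probes the Lbp differences were -3.38 for LeuA and -3.34 for LeuB.
Ly86 (MD-1), the partner of the Toll-like protein Cd180, fell, with LeuA minus WT at -5.51 and LeuB minus WT at -5.60 (SE 0.21). Cd14, the lipopolysaccharide co-receptor, was called lower in both, by -0.88 in LeuA arrays (adjusted p = 0.0031) and -1.10 in LeuB arrays (adjusted p = 0.00071). Rftn1, a membrane raft protein used by Tlr3 and Tlr4, was lower in both leukaemias, with differences from WT of -1.61 in LeuA and -1.41 in LeuB (SE 0.31). LeuA 1 stood apart, at 10.13 against 11.46 in LeuA 2 and 11.56 in LeuA 3. Over the alternatives the LeuA difference ran from -1.87 to -1.15 and stayed called. The LeuB call of Rftn1 was lost on slide 1 alone (-1.38) and with slide as a block.
Against these, Ly96 (MD-2), which binds lipopolysaccharide together with Tlr4, was called higher in LeuB, with 0.83 (adjusted p = 4.5e-05), and gave 0.23 for LeuA (adjusted p = 0.081). In LeuA it was called with quantile normalization (0.28, adjusted p = 0.036) and without LeuA 3 (0.30, adjusted p = 0.026). Its values were 8.04, 8.02 and 7.80 in LeuA, 8.53, 8.47 and 8.67 in LeuB, and 7.71, 7.82 and 7.65 in WT, so LeuB stood above all other arrays.

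Most genes of receptor trafficking and processing fell. Among the endosomal receptors, Tlr7 and Tlr9 stayed clearly above the bottom of the scale, whereas Tlr12 fell to values near it. Of 10 measured trafficking and processing genes, LeuA had 7 lower and 2 higher and LeuB 7 lower and 1 higher, with medians of -1.24 and -1.35. Unc93b1, the chaperone that endosomal Toll-like receptors need to leave the endoplasmic reticulum, was at 8.40, 8.91 and 8.95 in LeuA, 9.28, 9.26 and 9.16 in LeuB, and 12.38, 11.88 and 11.93 in WT. LeuA minus WT was -3.31 (SE 0.17, adjusted p = 2e-07), 9.92-fold lower, and LeuB minus WT was -2.83 (adjusted p = 6e-07), 7.13-fold lower.
The cathepsins Ctsl and Ctss, proteases that trim Tlr9 and its relatives, were lower, with -4.27 and -3.63 for LeuA and -3.94 and -3.27 for LeuB. Rab7b, a small GTPase that directs Tlr4 and Tlr9 to lysosomes, fell, with LeuA minus WT at -4.28 and LeuB minus WT at -4.13.

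The adaptors went different ways. Myd88, the adaptor shared by most Toll-like receptors, was at 11.53, 11.52 and 11.55 in LeuA, 11.40, 11.40 and 11.42 in LeuB, and 10.87, 10.71 and 10.83 in WT. It rose by 0.73 in LeuA (SE 0.06, adjusted p = 6.9e-06), 1.66-fold higher, and by 0.61 in LeuB (adjusted p = 2.4e-05), 1.52-fold higher, with no overlap between leukaemic and WT arrays. Tirap, which brings Myd88 to Tlr2 and Tlr4 at the membrane, was at 6.81, 6.76 and 6.88 in LeuA, 7.31, 7.61 and 7.87 in LeuB, and 9.39, 9.05 and 8.97 in WT. It was called lower in both, by -2.32 in LeuA arrays (SE 0.15, adjusted p = 1.2e-06) and -1.54 in LeuB arrays (adjusted p = 2.2e-05). The 2 leukaemias differed in Tirap, with LeuB 0.78 above LeuA (adjusted p = 0.011), a call that was lost on slide 1 alone (0.49, adjusted p = 0.22).
Ticam1 (TRIF), the adaptor of Tlr3 and of internalized Tlr4, gave 0.23 in LeuA (adjusted p = 0.069) and 0.05 in LeuB (adjusted p = 0.68). Ticam2 (TRAM), which links Tlr4 to Ticam1, was lower in both leukaemias, with differences from WT of -0.53 in LeuA and -0.55 in LeuB near the bottom of the scale. Pik3ap1 (BCAP), an adaptor to PI3 kinase, fell, with LeuA minus WT at -0.38 and LeuB minus WT at -0.36, and the LeuB call was lost on slide 1 alone (-0.20, adjusted p = 0.22) and without WT 1 and LeuB 3 (-0.23, adjusted p = 0.10). In all, of 6 adaptor genes 3 fell and 1 rose in each leukaemia.

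Signalling kinases and ligases were split. Of 14 measured, LeuA had 4 lower and 6 higher and LeuB 5 of each, where 17.9% of all genes were called higher in LeuA and 21.8% in LeuB. Ikbke, a kinase that activates interferon regulatory factors, was called lower in both, by -2.36 in LeuA arrays (SE 0.13) and -1.92 in LeuB arrays. Tab3 and Tab1, which bind the kinase Map3k7 (TAK1), were higher, with 1.25 and 1.07 for LeuA and 1.28 and 1.05 for LeuB. Irak2, a kinase recruited by Myd88, was higher in both leukaemias, with differences from WT of 0.65 in LeuA and 0.76 in LeuB.

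Among inhibitors of the pathway the largest rises were in Socs1 and Tnfaip3. Of 11 measured, LeuA had 4 higher and 3 lower and LeuB 4 higher and 2 lower. Socs1, a suppressor of cytokine signalling, was at 10.97, 11.13 and 10.68 in LeuA, 10.26, 10.30 and 10.33 in LeuB, and 7.94, 7.79 and 7.77 in WT. It rose 8.51-fold in LeuA (adjusted p = 1.5e-08) and 5.51-fold in LeuB (adjusted p = 7.4e-08). Tnfaip3 (A20), a deubiquitinating enzyme that ends NF-kappaB signalling, was at 10.79, 11.17 and 10.87 in LeuA, 10.97, 11.05 and 11.03 in LeuB, and 8.54, 8.71 and 8.69 in WT, 4.93-fold and 5.18-fold higher in the leukaemias.
Dusp1, a phosphatase of MAP kinases, rose, with LeuA minus WT at 0.87 and LeuB minus WT at 0.57. By contrast Irak3 (IRAK-M), an inactive kinase of myeloid cells that blocks Irak1, was at 8.94, 8.68 and 8.84 in LeuA, 9.59, 9.65 and 9.69 in LeuB, and 10.76, 10.49 and 10.73 in WT. Irak3 was lower in both leukaemias, with differences from WT of -1.84 in LeuA (SE 0.09) and -1.02 in LeuB, and LeuB was 0.82 above LeuA (adjusted p = 0.00074), so the 3 groups stood apart.

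Among downstream transcription factors Irf7 and Irf8 moved furthest, in opposite directions. Of 8 measured, LeuA had 4 higher and 2 lower and LeuB 4 higher and 1 lower. Irf7, which drives interferon genes after Tlr7 and Tlr9 signalling, was at 11.41, 11.55 and 11.56 in LeuA, 10.93, 10.33 and 10.28 in LeuB, and 7.37, 7.38 and 7.49 in WT. It rose 17.1-fold in LeuA (adjusted p = 2.5e-08) and 8.57-fold in LeuB (adjusted p = 1.8e-07). The NF-kappaB subunits Relb and Nfkb2 were higher, with 2.93 and 1.76 for LeuA and 2.54 and 1.21 for LeuB. The second Relb probe lay between 8.08 and 8.85 and gave 0.08 in LeuA and -0.26 in LeuB, neither called, and with the mean of both probes Relb was higher in both leukaemias, with differences from WT of 1.51 in LeuA and 1.14 in LeuB. Irf8, a factor of monocytes and dendritic cells, fell, with LeuA minus WT at -7.62 and LeuB minus WT at -7.40, to values between 6.24 and 6.98 in the leukaemias.

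**Figure D4:**
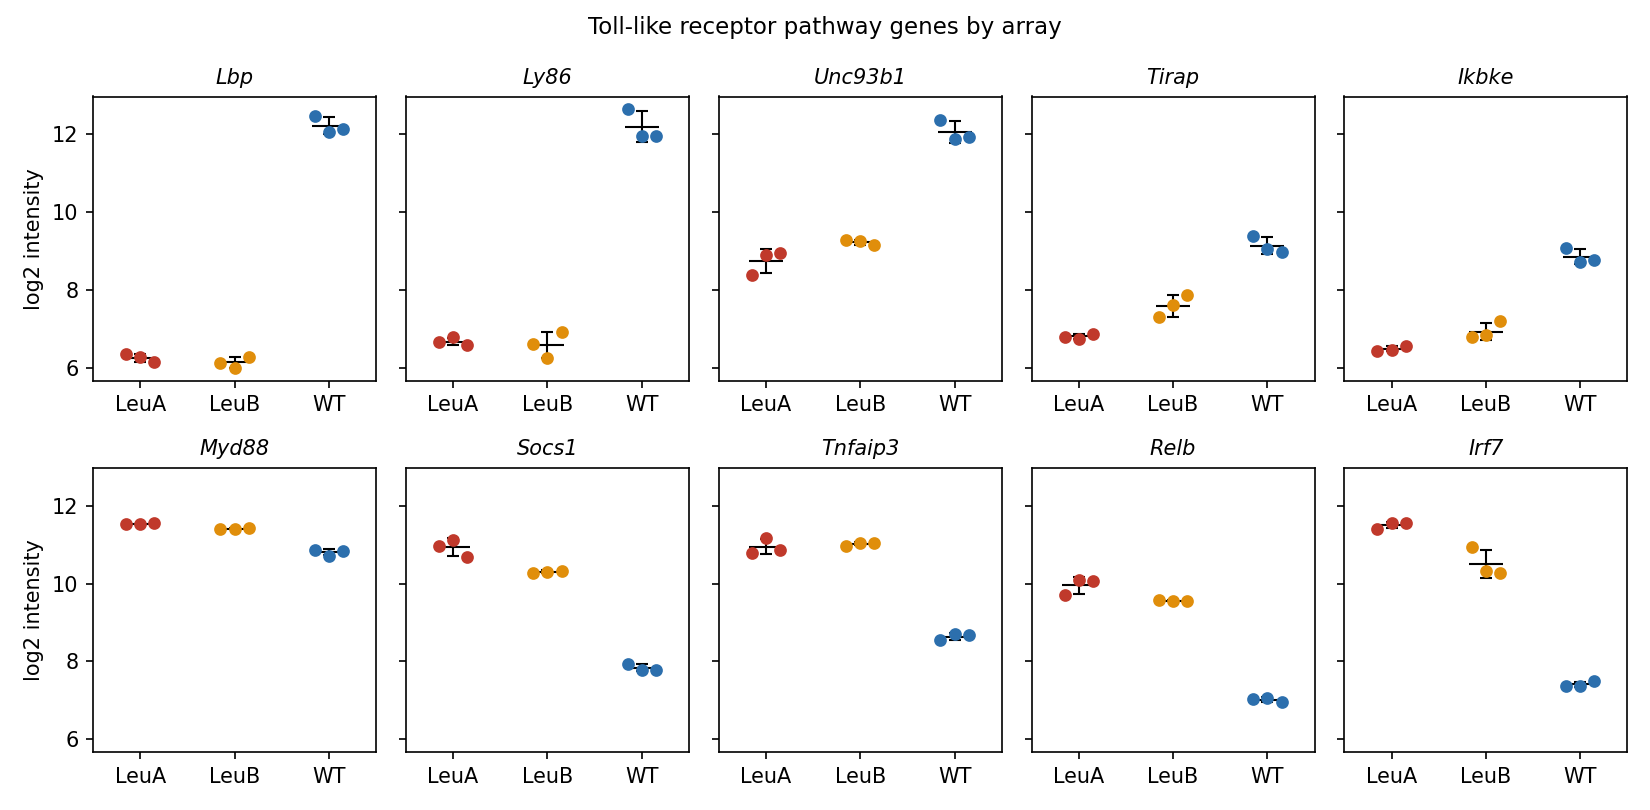
Log2 intensity (y axis) of 10 genes of the pathway on the 9 arrays, in LeuA, LeuB and WT GMPs, with 1 point per array and the mean ± SD of 3 arrays in black. The upper row holds genes lower in both leukaemias (Lbp, Ly86, Unc93b1, Tirap and Ikbke) and the lower row genes higher in both (Myd88, Socs1, Tnfaip3, Relb and Irf7). Levels are not compared between panels.

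Genes that Toll-like receptor signalling is known to induce did not move together. Of 20 measured response genes, LeuA had 7 lower and 2 higher and LeuB 7 lower and 3 higher. Over all genes, 18.9% were lower and 17.9% higher in LeuA, and 20.4% lower and 21.8% higher in LeuB. The list medians were -0.05 in LeuA and 0.06 in LeuB, and 14 of the 20 lay below the median gene on every array. Cd80, a co-stimulatory surface protein, was called lower in both, by -1.69 in LeuA arrays and -1.08 in LeuB arrays. Il12a, a subunit of interleukin-12, was lower in both leukaemias, with differences from WT of -1.14 in LeuA and -1.02 in LeuB. Cxcl10, a chemokine, rose, with LeuA minus WT at 0.99 and LeuB minus WT at 1.08, where the call was lost on slide 1 alone (0.94, adjusted p = 0.084), and its second probe, between 6.03 and 6.27, was not called. With the mean of both probes the Cxcl10 differences were 0.57 in LeuA and 0.61 in LeuB. Il6, an inflammatory cytokine gene, was higher in both leukaemias, with differences from WT of 1.05 in LeuA and 0.76 in LeuB. The Il6 call in LeuB was lost on slide 1 alone (0.30, adjusted p = 0.36) and without WT 1 (adjusted p = 0.051), LeuB 2 (0.056) or LeuB 3 (0.054).

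**Figure D5:**
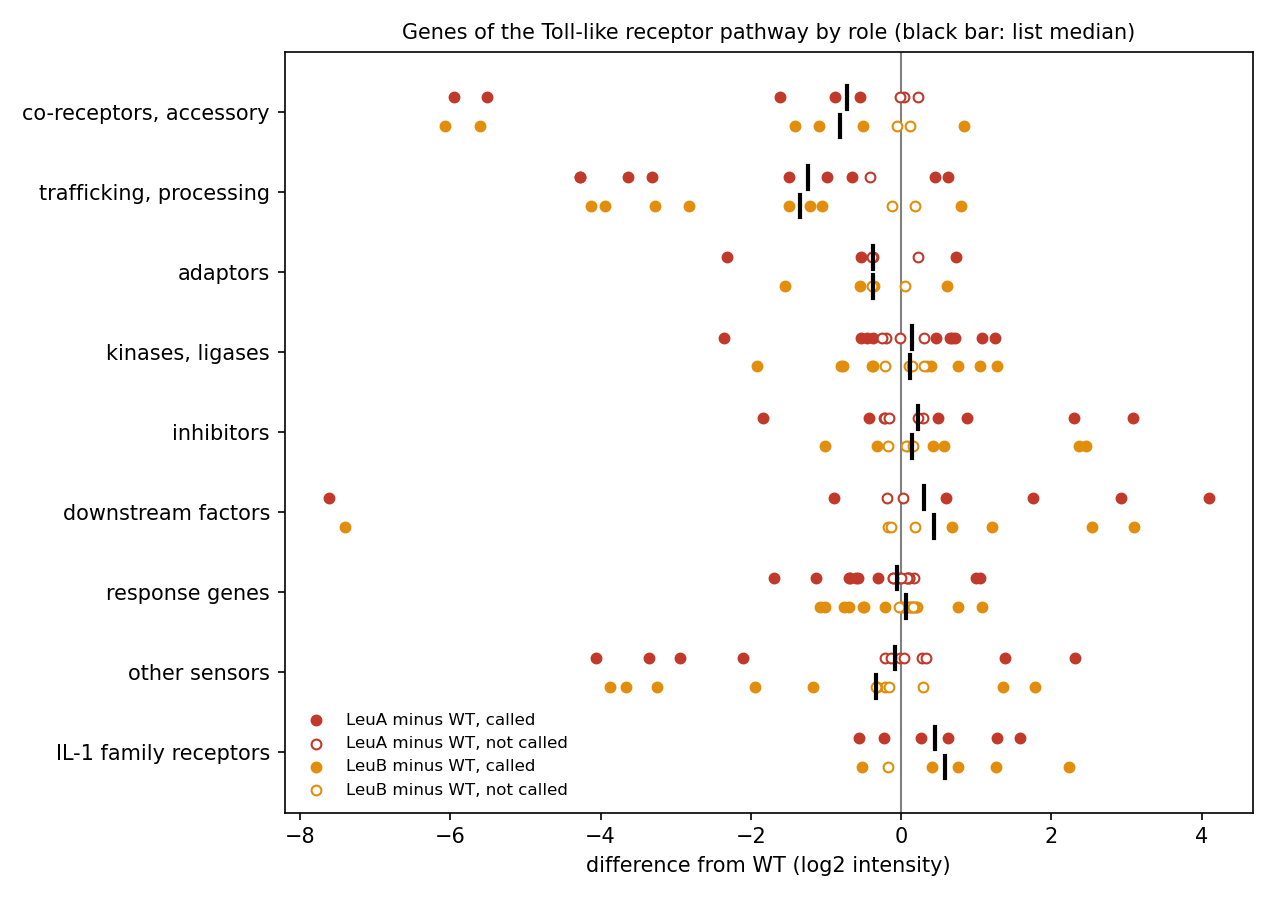
Difference in log2 intensity from WT (x axis) of each measured gene on the lists of Toll-like receptor co-receptors, trafficking genes, adaptors, kinases, inhibitors, downstream factors, response genes, other innate sensors and IL-1 family receptors, with LeuA above LeuB in each row. Filled points passed the adjusted p of 0.05 and black bars are list medians. The trafficking genes have medians of -1.24 and -1.35, and the response genes have medians of -0.05 and 0.06.

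Most of the listed factors that control myeloid genes fell. Of 8 measured, 6 fell and 2 rose in each leukaemia. The 2 that rose were Runx1, with differences from WT of 2.05 in LeuA and 1.14 in LeuB, and Egr1, with 1.73 and 1.80. Spi1, which encodes PU.1, was at 8.09, 8.30 and 8.42 in LeuA, 8.04, 8.22 and 8.44 in LeuB, and 9.62, 9.37 and 9.27 in WT. It fell, with LeuA minus WT at -1.15 (SE 0.13, adjusted p = 7.6e-05) and LeuB minus WT at -1.19 (adjusted p = 5.7e-05). Cebpa and Cebpb were lower, with -5.28 and -3.76 for LeuA and -5.43 and -3.28 for LeuB, and Gfi1, a transcriptional repressor needed for granulocyte formation, was called lower in both, by -6.63 in LeuA arrays and -6.54 in LeuB arrays. Whether these changes bear on the receptors was not tested.

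Profiles over the 9 arrays were compared with that of Tlr2 by root mean square distance, after each gene was centred on its own mean. Unnamed gene models were skipped. The closest of the remaining genes were Scarb2, Nxn, Mdfic, Ptpru and Tfec. Their distances were 0.075, 0.0857, 0.0858, 0.0945 and 0.104 log2 units. All of them except Nxn had means below the lower quartile of 6.43 in both leukaemias, as Tlr2 did. Scarb2, a lysosomal membrane protein, had means of 6.26 in LeuA, 6.17 in LeuB and 9.69 in WT. Tfec, a transcription factor of the MiT family, had means of 6.29 in LeuA, 6.24 in LeuB and 9.73 in WT. No receptor rose in both leukaemias, so no such list was made for a rise.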

How the data were processed

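The values analysed are the log2 intensities that the authors deposited for 37877 probes of 9 single-dye (Cy3) Agilent SurePrint G3 mouse arrays, 3 each of LeuA, LeuB and WT. The submitters' processing notes name RMA, affy and limma without versions or roles, and background correction is not given in the sources used here. Values ran from 5.655 to 18.24, array medians from 7.02 to 7.04, and quantile normalization applied once more shifted no value by more than 0.06. For arrays the number of samples, not a count of reads, limits the precision.

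Probes were named from the platform annotation supplied with the series. 24877 probes had 1 symbol, 13000 had none and were left unnamed, and the probe with the highest mean over the 9 arrays was kept for each of 21872 genes. Of the 13 receptor probes 10 carry an accession that RefSeq lists under the same symbol and 3 were not matched. No filter on dim probes was applied.

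Group means were fitted to all 9 arrays with limma 3.58.1 (lmFit, eBayes with its defaults) in R 4.3.3, two-sided, with Benjamini-Hochberg adjustment over all genes and intervals at 95%. There were 6 residual and 3 prior degrees of freedom, and the script was tested on simulated data. Sequences are those of RefSeq, GRCm38.p6. The receptors and the 18 gene lists were chosen with earlier results of these data known. All 10 receptors are named, and from each pathway list up to 4 called genes with the largest mean absolute difference, besides Myd88, Ticam1, Unc93b1, Cd14, Ly96 and Spi1. Same-numbered arrays were checked for pairing. After removal of group means, 9 pairs correlated across genes at -0.041 to 0.103, so equal numbers were not treated as pairs. Alternatives were another normalization, slide or replicate number as a block, slide 1 alone, dim genes left out, probe averages, all probes as features, only the groups compared, another variance prior and each array left out.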

Additional observations from a re-analysis of the deposited data

Results flagged for a closer look

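No receptor was called in LeuB against LeuA, and of the 42 named genes of the pathway lists 10 were (limma, adjusted p under 0.05), where 12.3% of all genes were called. Most of the 42 were named for large differences from WT, so the shares are not comparable. LeuB was higher than LeuA in Il1r1 (0.95), Irak3 (0.82), Tirap (0.78), Cd80 (0.61) and Ly96 (0.60). LeuB was lower than LeuA in Irf7 (-0.99), Socs1 (-0.63), Nfkb2 (-0.55), Ddx58 (-0.53) and Relb (-0.39). On slide 1 alone, where LeuB has 1 array, Irak3 (0.77, adjusted p = 0.048) and Irf7 (-0.57, adjusted p = 0.032) were still called and the calls of the other 8 were lost, with adjusted p of 0.075 for Ly96, 0.091 for Nfkb2, 0.12 for Socs1, 0.17 for Ddx58, 0.22 for Tirap, 0.27 for Il1r1, 0.35 for Relb and 0.43 for Cd80. The Cd80 call was also lost without LeuA 1 (adjusted p = 0.069), LeuB 2 (0.097) or LeuB 3 (0.085), and the Relb call without WT 1, WT 2, WT 3, LeuA 2, LeuA 3, LeuB 2 or LeuB 3 (0.052 to 0.12). With slide as a block the same 8 calls were lost, Relb at an adjusted p = 0.27. With only LeuB and LeuA in the fit the calls of Cd80 (adjusted p = 0.051) and Relb (0.087) were lost, and without WT 1 and LeuB 3 together those of Il1r1 (0.07), Cd80 (0.092) and Relb (0.14). The part of slide in these differences was not tested beyond these values.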

How the results depend on the processing

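The count of receptors called was 5 in LeuA against WT, 5 in LeuB against WT and 0 in LeuB against LeuA. With genes below the median of 7.53 left out, 3 of the 10 receptors were tested (Tlr7, Tlr9 and Tlr13) and the first 2 counts were 1 and 1, because Tlr1, Tlr2, Tlr4 and Tlr6 fell below that filter. Leaving out 1 array at a time gave counts of 5 to 6 in LeuA, 4 to 6 in LeuB and 0 to 3 between the leukaemias, the 3 being Tlr7, Tlr9 and Tlr13 without LeuB 1. With a replicate block the counts were 5, 5 and 0, and the block changed no receptor's call. Among the named pathway genes it ended the call of Relb between the leukaemias (adjusted p = 0.057) and gave one to Ticam1 in LeuA. With slide as a block Tlr9 lost its call in LeuB (-0.16, adjusted p = 0.31), which left 4 receptors called there. Tlr9 was called in LeuA in 2 settings, slide as a fixed block and LeuB 1 left out (-0.22, adjusted p = 0.041 in each). Of 579 receptor values under the alternatives, 566 kept their side of the threshold, 7 lost a call and 6 gained one, and no called value changed sign. Of 381 values called under neither setting, 19 had the other sign. Of 2547 values of Tlr12 and the named pathway genes, 46 lost a call and 12 gained one. Signals near the bottom of the scale, those of Tlr3, Tlr5 and Tlr8 on every array, limit what can be seen, and no background level was used here to set a bound. Quantile normalization applied again, or median centring of the deposited values, left the counts unchanged. The deposited arrays already had medians from 7.02 to 7.04, so these settings could change little and do not test the original normalization.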

Other observations

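Other innate sensors went different ways, and about as many were not called as were called. Of 12 measured, LeuA had 4 lower and 2 higher and LeuB 5 lower and 2 higher, beside 18.9% lower and 17.9% higher over all genes in LeuA and 20.4% lower and 21.8% higher in LeuB. Nod1, a cytosolic sensor of peptidoglycan, was at 6.53, 6.57 and 6.67 in LeuA, 6.44, 6.88 and 7.01 in LeuB, and 10.85, 10.56 and 10.53 in WT, 16.7-fold lower for LeuA and 14.6-fold for LeuB. Sting1, the adaptor of cytosolic DNA sensing, was lower in both leukaemias, with differences from WT of -3.35 in LeuA and -3.25 in LeuB, and Clec7a, the beta-glucan receptor, fell, with LeuA minus WT at -2.94 and LeuB minus WT at -3.66. Ddx58 (RIG-I), a cytosolic RNA sensor and interferon-stimulated gene, averaged 12.23 ± 0.16 in LeuA, 11.70 ± 0.13 in LeuB and 9.92 ± 0.07 in WT (SD, n = 3 each), 4.96-fold and 3.43-fold higher in the leukaemias.

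The IL-1 family receptors share the TIR domain and Myd88 with the Toll-like receptors. Of 6 measured, LeuA had 4 higher and 2 lower and LeuB 4 higher and 1 lower. Il1r1, the signalling receptor of interleukin-1, was at 8.08, 8.75 and 8.83 in LeuA, 9.31, 9.57 and 9.63 in LeuB, and 7.33, 7.24 and 7.25 in WT, and rose, with LeuA minus WT at 1.28 and LeuB minus WT at 2.23. Il18r1, a chain of the interleukin-18 receptor, was higher in both leukaemias, with differences from WT of 1.58 in LeuA and 1.26 in LeuB, whereas the other chain, Il18rap, was lower, at -0.56 for LeuA and -0.52 for LeuB. The second Il18r1 probe, between 6.19 and 6.48, was not called, and with the mean of both probes Il18r1 rose, with LeuA minus WT at 0.83 and LeuB minus WT at 0.67. Il1rap, the shared accessory chain, was higher in both leukaemias, with differences from WT of 0.62 in LeuA and 0.76 in LeuB. Its LeuB call was lost on slide 1 alone (0.47). Its other probes were not called, with 0.10 and 0.11 in LeuA and 0.20 and -0.18 in LeuB. With the mean of the 3 probes the Il1rap differences were 0.28 in LeuA and 0.26 in LeuB.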
